A study of Mus musculus with 12 samples.

Results

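Whether MBQ-167 and paclitaxel, given together, changed gene expression in mouse mammary tumours by more or less than the sum of what each drug did alone was read from 1 contrast, the interaction. The interaction was the log2 level in the combination group minus that in the MBQ-167 group, minus that in the paclitaxel group, plus that in the vehicle group. It is 0 where the log2 effects of both drugs add up, positive where the combination lay above that sum and negative where it lay below it. All 12 libraries entered the contrast, and it was tested for the 18252 genes that passed a filter on low counts, of 46078 genes listed, 30803 of which had at least 1 count.

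The tumours grew in BALB/c mice from 300000 4T1 cells, a metastatic mouse mammary carcinoma line carrying firefly luciferase, placed in mammary fat pad 4, and the labels give the genotype as WT. The combination group received MBQ-167 at 100 mg/kg 5 times a week together with paclitaxel at 5 mg/kg 1 time a week. The MBQ-167 group and the paclitaxel group each received 1 of these drugs at the same dose and schedule, and the control group received vehicle. Treatment started on day 14, lasted 2 weeks and ended with the tumours collected on day 28, so every group carried an established tumour of 1 cell line in its host mouse. There are 3 libraries a group, called biological replicates in the labels. No source used here says that each came from its own mouse, and p-values reflect the spread between libraries, which may be technical. Cells were injected on 2 occasions that are not assigned to libraries, and occasion and group cannot be told apart.

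MBQ-167 is a small molecule that blocks the GTPases Rac and Cdc42, which control actin assembly, cell migration and kinase signalling to the nucleus. Paclitaxel binds tubulin, stabilises microtubules and stalls dividing cells in mitosis. Immediate early genes, which make up much of what follows, are transcription factors and phosphatases whose transcription starts within minutes of a growth factor or stress signal through factors already present in the cell, and several of them also answer to glucocorticoid hormones or to interferons.

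Library depth ran from 11540557 to 17001562 counts. The transcripts of Krt8 and Krt18, the paired keratins of simple epithelium, were present in every library: Krt8 had 295, 315 and 370.1 CPM (the deposited counts scaled to library size) in the combination libraries, 299.5, 277 and 344 CPM with MBQ-167, 325, 295 and 299.8 CPM with paclitaxel and 534, 371 and 694 CPM with vehicle. Of the counts, 17.1% to 37.5% fell on 3 features related to ribosomal RNA. This share averaged 28.1% in combination, 32.6% in MBQ-167, 25.7% in paclitaxel and 34.6% in vehicle libraries. CT010467.1, 1 of these features, held 2.00%, 1.11% and 1.16% of counts in the vehicle libraries and at most 0.866% in any drug library. The scaling factors for library size were 0.826, 0.897 and 0.904 in vehicle and at least 0.933 in drug libraries. The correlation of log2 level with transcript GC content across genes, relative to the mean of all libraries, averaged -0.115 in combination, 0.0663 in MBQ-167, -0.212 in paclitaxel and 0.210 in vehicle libraries, so it moved with the groups. In the same contrast that measure gave 0.241.

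Of the 18252 genes, 9 (0.0493%) had an interaction above 0 and 3 (0.0164%) an interaction below 0 at an adjusted p under 0.05 in edgeR's quasi-likelihood test. The 9 were the AP-1 transcription factor genes Fos, Fosb and Jund, the transcript Gm11175 on the opposite strand of Jund, the stress factor gene Atf3, the phosphatase gene Dusp1, the endothelial and lymphocyte factor gene Klf2, the glucocorticoid receptor co-chaperone gene Fkbp5 and the clock gene Per2. The 3 were Ch25h, which makes 25-hydroxycholesterol, Tmem229b, a membrane protein gene, and Zbp1, a sensor of unusual nucleic acids. The smallest interaction that passed had a size of 1.19 on the log2 scale. At an unadjusted p under 0.05 there were 905 genes above 0 (4.96%) and 865 below 0 (4.74%), and the median over all genes was 0.00.

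The number that passed depended on single libraries. It was 26 without vehicle library 2 and 20 without combination library 1. It was 6 without paclitaxel library 1, 2 without MBQ-167 library 1, 2 without combination library 2, and 1, Fos, without MBQ-167 library 3, paclitaxel library 2 or paclitaxel library 3. Each of the 12 genes kept its sign in all 12 of these fits, which reuse the libraries that picked the genes and so do not test the sign. The interaction is less precise than a difference between 2 groups, with a median standard error (SE) of 0.33 on the log2 scale against 0.23.

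**Figure D1:**
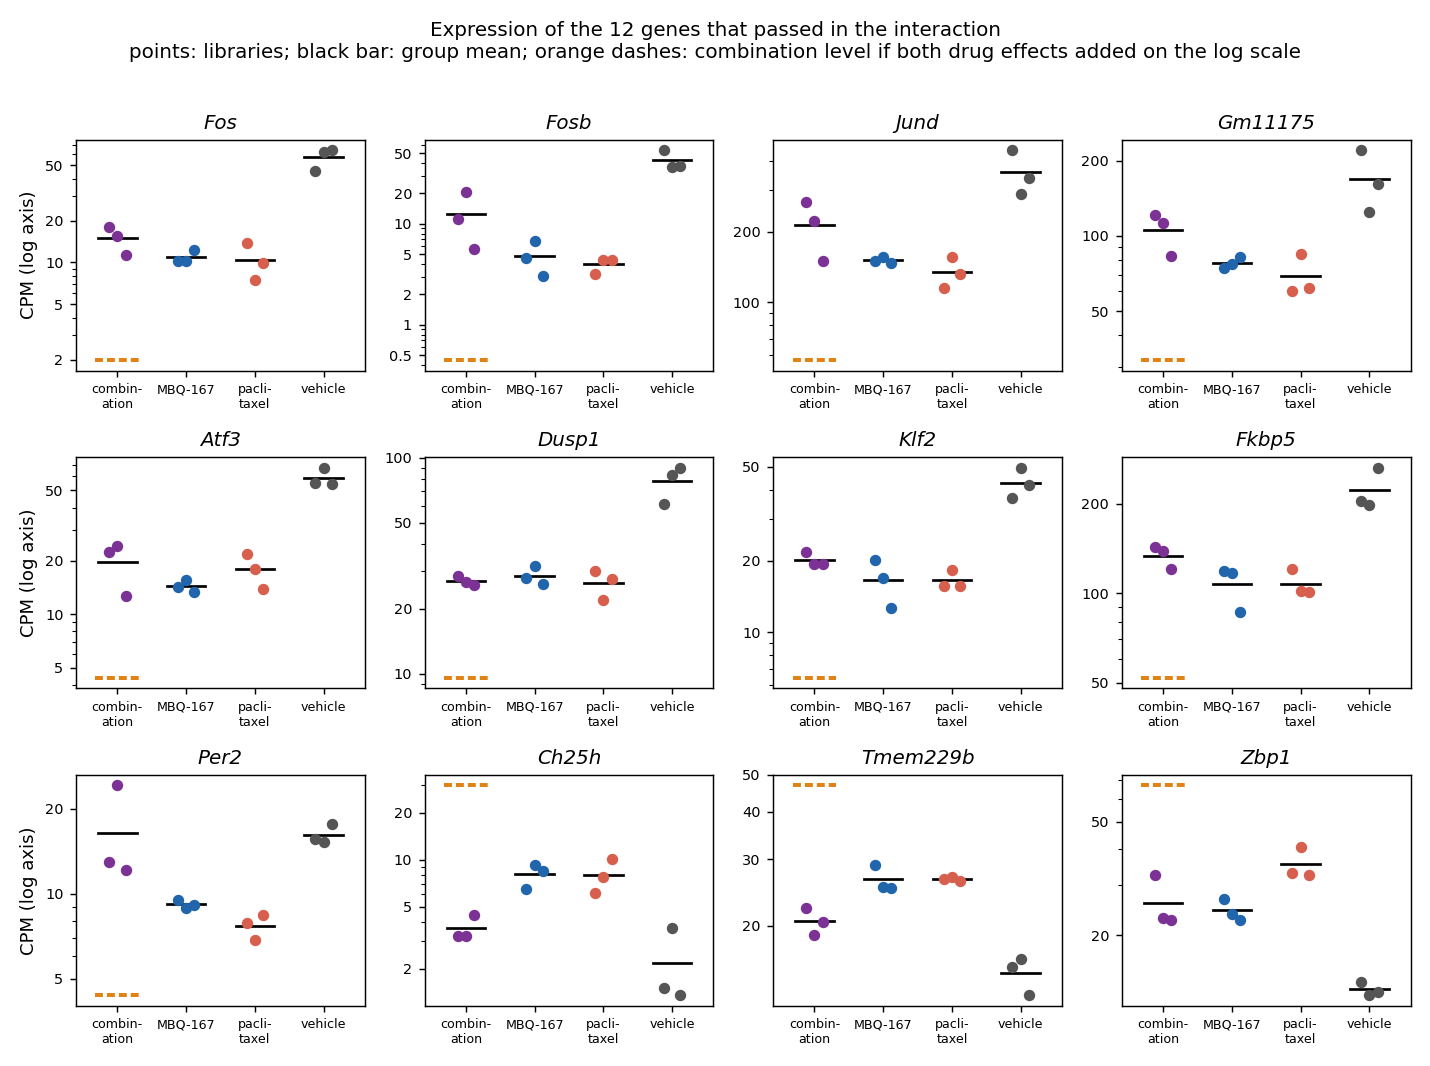
Expression in CPM on a log axis for the 12 genes that passed in the interaction, with 1 point per library, a bar at the group mean, and orange dashes at the combination level that the log2 effects of both drugs would give if they added up. In 9 genes the combination libraries lie above the dashes and in Ch25h, Tmem229b and Zbp1 below them, for example at a mean of 14.9 ± 3.33 CPM against 1.99 CPM for Fos.

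For comparison, 24 genes (0.131%) passed for MBQ-167 against vehicle, 1123 (6.15%) for paclitaxel against vehicle and 372 (2.04%) for the combination against vehicle. None passed for the combination against MBQ-167 (0%) or the combination against paclitaxel (0%) in edgeR's test. Those last comparisons had 936 and 417 genes at an unadjusted p under 0.05, DESeq2 called 1 and 5 genes in them, and limma voom called 0 in each. Single libraries moved these counts. MBQ-167 against vehicle gave 5 genes without MBQ-167 library 3, 6 without MBQ-167 library 2, 9 without MBQ-167 library 1 and 11 without vehicle library 1, against 55 without vehicle library 2 and 40 without vehicle library 3. Paclitaxel against vehicle gave 302 without paclitaxel library 2, 428 without vehicle library 1 and 478 without paclitaxel library 1. The combination against vehicle gave 42, 149 and 118 without combination libraries 1, 2 and 3, 225 without MBQ-167 library 2 and 77 without vehicle library 1. These comparisons share libraries with the interaction, so their values are given side by side for each gene and their overlap is not used as a result. Vehicle enters the interaction with the sign of the combination, so a difference of the vehicle libraries from all 9 drug libraries gives an interaction as well. That and a response of equal size to each of the 3 drug treatments cannot be told apart here.

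AP-1 genes had the highest interactions among the 12 genes that passed, Fosb and Fos. AP-1 is a dimer of a Fos and a Jun protein, and Fos and Fosb encode Fos partners that are nearly silent in resting cells and are switched on through cAMP, calcium and MAP kinase signals. The 250 bases before the start of Fos (chr12:85473640-85473889, plus strand) and of Fosb (chr7:19310046-19310295, minus strand) are shown because of those interactions. The capitals mark TGACG, the core of the cAMP response element (CRE), on either strand (RefSeq, GRCm38.p6).
Fos promoter: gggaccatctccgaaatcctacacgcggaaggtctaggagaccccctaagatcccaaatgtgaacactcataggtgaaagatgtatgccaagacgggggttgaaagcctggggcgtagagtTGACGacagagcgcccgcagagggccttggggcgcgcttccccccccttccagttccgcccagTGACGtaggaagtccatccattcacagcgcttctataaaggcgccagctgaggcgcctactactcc
Fosb promoter: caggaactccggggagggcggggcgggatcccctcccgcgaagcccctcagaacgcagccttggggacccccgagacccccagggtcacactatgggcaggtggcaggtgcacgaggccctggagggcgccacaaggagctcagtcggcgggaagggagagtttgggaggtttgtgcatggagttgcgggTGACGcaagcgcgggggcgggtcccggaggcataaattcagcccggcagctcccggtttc

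Fos lies at chromosome 12, 85473890 to 85477273 (GRCm38). It had 17.8, 15.5 and 11.3 CPM in the combination libraries, 10.3, 10.2 and 12.4 CPM with MBQ-167, 13.7, 7.51 and 9.94 CPM with paclitaxel and 45.3, 61.8 and 64.1 CPM with vehicle. Every drug library was below every vehicle library, and the 3 drug groups overlapped one another. Fos fell with all 3 treatments, with log2 differences from vehicle of -1.95 for the combination, -2.38 for MBQ-167 and -2.44 for paclitaxel. The combination averaged 14.9 ± 3.33 CPM (SD, n = 3), while single-drug effects that added up to -4.82 would leave 1.99 CPM. The interaction was 2.88 ± 0.31 (adjusted p = 0.00193), the smallest p of all genes.

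Fosb (chromosome 7, 19302696 to 19310051) had 11.1, 20.8 and 5.59 CPM in the combination libraries, 4.58, 6.79 and 3.04 CPM with MBQ-167, 3.18, 4.35 and 4.42 CPM with paclitaxel and 53.7, 36.8 and 37.5 CPM with vehicle. The combination libraries were all above the paclitaxel libraries, overlapped those given MBQ-167 and were all below vehicle. The combination differed from vehicle by -1.77 (log2), which did not pass (adjusted p = 0.0567), and Fosb fell with MBQ-167, at a difference of -3.16, and with paclitaxel, at -3.43. The interaction of 4.81 ± 0.63 (adjusted p = 0.0267) was the largest that passed and also rested on low counts with a spread of 7.71 CPM (SD, n = 3) among the combination libraries.

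Jund encodes the Jun partner that resting cells already contain. Its per-library levels were 267, 223 and 149.9 CPM with the combination, 150.0, 156 and 148 CPM with MBQ-167, 115, 156 and 133 CPM with paclitaxel and 445, 290.4 and 337 CPM with vehicle. The drug libraries were all below vehicle, and combination libraries 1 and 2 were above all 6 single-drug libraries. The interaction was 1.90 ± 0.28 (adjusted p = 0.0227). Jund lies at chromosome 8, 70698949 to 70700616, on the plus strand, and Gm11175 lies within it at 70699162 to 70700080 on the minus strand. Gm11175 followed Jund, with 106 ± 20.1 CPM in combination, 77.8 ± 4.11 CPM in MBQ-167, 69.1 ± 13.8 CPM in paclitaxel and 169 ± 48.4 CPM in vehicle libraries (SD, n = 3 each) and an interaction of 1.73 ± 0.28 (adjusted p = 0.0444). Whether the counting used strand is not given in the sources used here, so reads of Jund and Gm11175 cannot be told apart.

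Atf3 and Dusp1 act against the signals that induce them. ATF3 is a stress-induced factor that mostly represses transcription, and DUSP1 is a phosphatase that switches off MAP kinases. The promoter of Atf3 (chr1:191183334-191183583, minus strand, inside the gene as annotated) carries 1 CRE core, marked in capitals, close to the start (RefSeq, GRCm38.p6).
Atf3 promoter: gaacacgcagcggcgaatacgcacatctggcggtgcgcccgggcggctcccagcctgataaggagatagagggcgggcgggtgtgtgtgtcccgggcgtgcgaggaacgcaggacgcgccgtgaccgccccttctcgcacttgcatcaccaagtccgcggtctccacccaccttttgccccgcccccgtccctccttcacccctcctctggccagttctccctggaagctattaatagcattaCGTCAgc

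Atf3 had 22.6, 24.2 and 12.7 CPM in the combination libraries, 14.3, 15.5 and 13.4 CPM with MBQ-167, 21.8, 18.01 and 13.9 CPM with paclitaxel and 54.9, 67.3 and 54.4 CPM with vehicle. Vehicle stood above all 9 drug libraries, which overlapped one another. Atf3 fell with all 3 treatments, by log2 differences of -1.57 for the combination, -2.03 for MBQ-167 and -1.71 for paclitaxel, and its interaction was 2.17 ± 0.31 (adjusted p = 0.0207). Combination library 3 was the lowest of the 9 drug libraries.

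Dusp1 (chromosome 17, 26505590 to 26562128) stood at nearly the same level in all 3 drug groups. It had 28.3, 26.7 and 25.8 CPM in the combination libraries, 27.6, 31.6 and 25.99 CPM with MBQ-167, 29.8, 21.96 and 27.5 CPM with paclitaxel and 60.9, 83.6 and 90.1 CPM with vehicle. The difference of the combination from MBQ-167 was -0.08 ± 0.16 (log2, SE), and that from paclitaxel was 0.02 ± 0.16. The combination stood at 26.9 ± 1.23 CPM (SD, n = 3), where additive effects would give 9.59 CPM, and the interaction was 1.49 ± 0.22 (adjusted p = 0.0207).

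Klf2, a Krüppel-like factor known from endothelium and resting T cells, had 21.8, 19.5 and 19.4 CPM in the combination libraries, 20.2, 16.9 and 12.7 CPM with MBQ-167, 15.8, 18.2 and 15.6 CPM with paclitaxel and 36.8, 49.5 and 41.7 CPM with vehicle. All drug libraries were below vehicle and the combination libraries were all above the paclitaxel ones. Its interaction was 1.65 ± 0.24 (adjusted p = 0.0207). The endothelial marker genes gave a median interaction of 0.04 over 14 tested members (-0.08 without combination library 3 and 0.18 without MBQ-167 library 1), with none passing in either direction. In bulk tumour RNA, fewer cells of a type and less RNA per cell cannot be told apart.

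The immediate early list as a whole held 24 genes, all tested, of which 6 passed with an interaction above 0 (Fos, Fosb, Jund, Atf3, Dusp1 and Klf2) and 0 below 0. At an unadjusted p under 0.05 there were 12 above 0 and 1 below 0, beside 4.96% and 4.74% of all genes, and the median was 0.59 beside 0.00 over all genes. The list's mean log2 CPM was 4.36, 4.34 and 4.23 in combination, 4.33, 4.38 and 4.26 in MBQ-167, 4.24, 4.19 and 4.35 in paclitaxel and 5.02, 5.22 and 5.14 in vehicle libraries. The 9 drug libraries thus lay within a narrow band below vehicle, whichever drug they had received. The members are related stress genes chosen with earlier results of these data known, so the count describes them and does not test them.

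**Figure D2:**
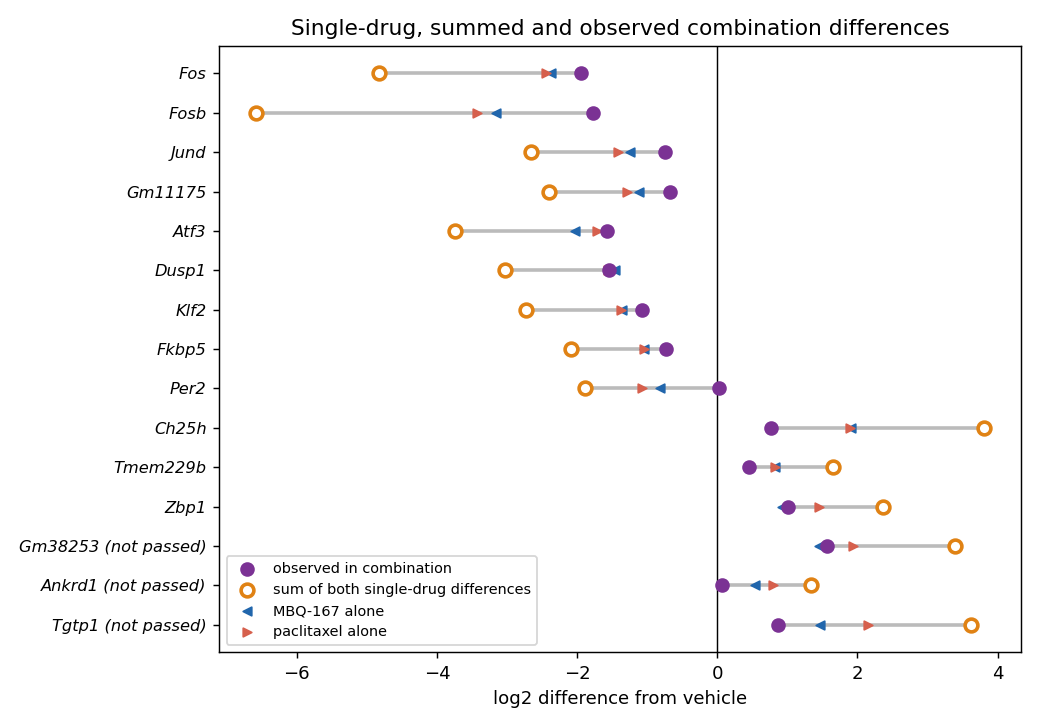
Log2 difference from vehicle for the combination as measured (filled circles), for the sum of both single drugs (open circles) and for each single drug (triangles), for the 12 genes that passed and 3 that came next below 0. For Fos the combination is at -1.95 and the sum at -4.82, and for Ch25h the combination is at 0.76 and the sum at 3.81.

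Fkbp5 and Per2 are known targets of the glucocorticoid receptor. FKBP5 binds the receptor's chaperone complex and lowers its affinity for hormone, and PER2 is a repressor of the circadian clock. Fkbp5 (chromosome 17, 28399094 to 28517527) had 142, 139 and 120.1 CPM in the combination libraries, 119, 117 and 86.4 CPM with MBQ-167, 121, 101 and 101 CPM with paclitaxel and 204, 198 and 264 CPM with vehicle. Drug libraries were all below vehicle, and combination libraries were all above those given MBQ-167. It fell in all 3 drug groups, at -0.73 (log2) for the combination, -1.05 for MBQ-167 and -1.04 for paclitaxel, with an interaction of 1.36 ± 0.21 (adjusted p = 0.0227).

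Per2 (chromosome 1, 91415982 to 91459324) differed from the genes above in its shape. Its levels were 12.9, 24.2 and 12.2 CPM in the combination libraries, 9.53, 8.88 and 9.13 CPM with MBQ-167, 7.86, 6.87 and 8.41 CPM with paclitaxel and 15.6, 15.3 and 17.7 CPM with vehicle. The combination libraries were above every single-drug library and overlapped vehicle. The log2 difference from vehicle was 0.02 for the combination, -0.82 for MBQ-167 and -1.07 for paclitaxel, of which the last passed (adjusted p = 0.014). Its interaction was 1.91 ± 0.32 (adjusted p = 0.0348), and 1.52 without combination library 2, the highest of that group. The hour of day at which tumours were collected is not given in the sources used here.

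Of 20 glucocorticoid-induced genes 19 were tested, 2 passed above 0 (Dusp1 and Fkbp5) and 11 had an unadjusted p under 0.05, all above 0, with a median of 0.88. Over all genes 0.0493% passed above 0, 4.96% were above 0 at that unadjusted threshold and the median was 0.00. Per1, another clock gene, had an interaction of 0.93 ± 0.29, and Tsc22d3, which encodes the glucocorticoid-induced leucine zipper protein, had 1.34 ± 0.40; neither passed (adjusted p = 0.306 and 0.311). The 19 tested circadian clock genes gave 1 that passed, Per2, and 4 with an unadjusted p under 0.05, all above 0, beside the same shares of all genes. Among them Nfil3, a repressor that works opposite to the clock's output activators, had 0.90 ± 0.20 (adjusted p = 0.125). The clock list's median was 0.25, and 0.40 without paclitaxel library 1.

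The 3 genes below 0 rose with each drug alone. CH25H converts cholesterol to 25-hydroxycholesterol, an oxysterol that macrophages and other cells release after interferon or Toll-like receptor signals. The promoter of Ch25h (chr19:34475149-34475398, minus strand) carries a pair of overlapping CRE cores on opposite strands, in capitals (RefSeq, GRCm38.p6).
Ch25h promoter: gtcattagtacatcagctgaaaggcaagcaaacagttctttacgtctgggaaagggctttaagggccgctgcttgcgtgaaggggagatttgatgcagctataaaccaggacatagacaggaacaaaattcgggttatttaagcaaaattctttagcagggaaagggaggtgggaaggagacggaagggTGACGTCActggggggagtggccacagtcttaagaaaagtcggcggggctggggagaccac

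Ch25h (chromosome 19, 34473778 to 34475164) had 3.25, 3.22 and 4.43 CPM in the combination libraries, 6.52, 9.31 and 8.52 CPM with MBQ-167, 6.12, 7.74 and 10.2 CPM with paclitaxel and 1.51, 3.64 and 1.35 CPM with vehicle. Combination libraries were all below the single-drug libraries and overlapped vehicle. The combination differed from vehicle by 0.76 (log2), which did not pass (adjusted p = 0.258), and Ch25h rose by 1.91 with MBQ-167 and by 1.89 with paclitaxel. The combination averaged 3.63 ± 0.687 CPM (SD, n = 3), where additive effects would give 30.04 CPM, and the interaction was -3.04 ± 0.47 (adjusted p = 0.0227). Without vehicle library 2, whose 3.64 CPM was the highest of its group, the interaction was -3.63.

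Tmem229b (chromosome 12, 78961795 to 79007627) encodes a transmembrane protein of little known function. It had 22.3, 18.96 and 20.5 CPM in the combination libraries, 28.9, 25.3 and 25.2 CPM with MBQ-167, 26.5, 26.9 and 26.3 CPM with paclitaxel and 15.6, 16.3 and 13.1 CPM with vehicle. The 3 levels did not overlap: vehicle was lowest, the combination lay between, and both single drugs were highest. Tmem229b rose by 0.82 (log2) with MBQ-167 and by 0.83 with paclitaxel, and its interaction was -1.19 ± 0.19 (adjusted p = 0.0251).

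ZBP1 senses Z-form nucleic acids, triggers necroptosis and is induced by interferon. Zbp1 (chromosome 2, 173206612 to 173218923) had 32.5, 22.98 and 22.6 CPM in the combination libraries, 26.8, 23.8 and 22.7 CPM with MBQ-167, 33.1, 40.8 and 32.4 CPM with paclitaxel and 13.8, 12.3 and 12.7 CPM with vehicle. Every drug library was above vehicle, and the combination libraries overlapped both single-drug groups. Zbp1 rose by 1.00 (log2) with the combination, by 0.92 with MBQ-167 and by 1.45 with paclitaxel. Its interaction was -1.37 ± 0.23 (adjusted p = 0.0312), and it passed in 2 of the 12 fits with 1 library left out, the fewest of the 12 genes.

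The next genes below 0 by p-value did not pass. Ankrd1, a YAP target and muscle stress gene, had 23.9, 29.4 and 32.99 CPM in the combination libraries, 43.3, 38.9 and 38.2 CPM with MBQ-167, 48.2, 42.7 and 52.8 CPM with paclitaxel and 33.9, 27.04 and 21.9 CPM with vehicle. Its combination libraries were below every single-drug library and overlapped vehicle, with an interaction of -1.27 ± 0.23 (adjusted p = 0.0551). The transcript Gm38253 had -1.83 ± 0.32 (adjusted p = 0.0524), and the interferon-inducible GTPase gene Tgtp1 had -2.75 ± 0.50 (adjusted p = 0.0585) at a mean of 1.71 ± 0.206 CPM in combination, 2.57 ± 0.851 in MBQ-167, 4.19 ± 1.03 in paclitaxel and 0.925 ± 0.191 in vehicle libraries (SD, n = 3 each).

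Promoter windows of 250 bases before to 50 after the RefSeq start were found for 9 of the 12 genes, with 10 windows in all. That start lay well inside the gene as annotated in Atf3, Dusp1 and Fkbp5, and before it in Jund. TGACG on either strand was in the windows of 6 of the 9 genes, and in 20.8% of 32851 windows. Counts here are of genes and percentages are of single windows, so the units differ. The 6 were Atf3, Ch25h, Dusp1, Fos, Fosb and Klf2. Dusp1 and Ch25h held an overlapping pair on opposite strands. The E-box CACGTG, known as the binding letters of the clock proteins, was in Dusp1 and Fkbp5 (7.15% of windows), and the glucocorticoid response element was in Jund (0.475%). None held the AP-1 letters TGANTCA (7.81%), the CArG box of serum response factor (1.63%), the interferon gamma element TTCNNNGAA (8.30%) or the interferon-stimulated core GAAANNGAAA (3.44%). These matches describe the letters of those windows. Sites farther from the start were not searched, so an element missing here may lie outside the window, and factor binding was not measured.

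**Figure D3:**
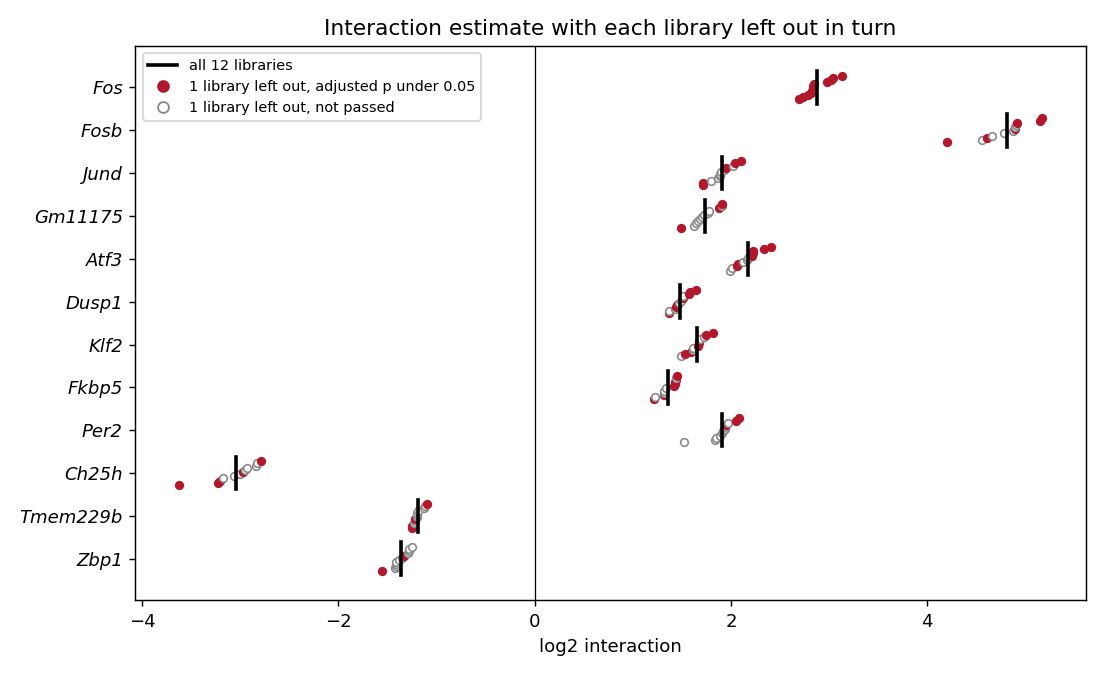
Log2 interaction of the 12 genes in all 12 libraries (bar) and in the 12 fits that each leave out 1 library (circles, filled where the adjusted p was under 0.05). All circles of a gene lie on the same side of 0, and Fos passed in 12 of 12 fits, Klf2, Atf3, Dusp1 and Fkbp5 in 7, Fosb in 6, Jund and Ch25h in 5, Tmem229b in 4, Per2 and Gm11175 in 3 and Zbp1 in 2.

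Gene groups beyond the 12 were described by 43 lists, of which 4 held a gene that passed: the immediate early, glucocorticoid-induced, circadian and type I interferon lists. The median interaction was above 0 in 32 lists and below 0 in 11. List members with an unadjusted p under 0.05 are counted below beside the 4.96% of all genes above 0 and 4.74% below 0 at that threshold.

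Among stress response genes, 15 of 20 heat shock chaperone genes and 14 of 16 unfolded protein response genes had an interaction above 0, and none passed. Of the 20 heat shock chaperone genes, 8 had an unadjusted p under 0.05, all above 0, with a median of 0.30 over the list; the number was 5 without MBQ-167 library 3. Hspa1b, the inducible HSP70, had 43.5, 24.2 and 50.01 CPM in the combination libraries, 16.9, 27.1 and 20.7 CPM with MBQ-167, 43.5, 20.5 and 15.3 CPM with paclitaxel and 66.4, 92.9 and 78.5 CPM with vehicle. Its drug libraries were all below vehicle and paclitaxel library 1 lay within the range of the combination libraries, with an interaction of 2.44 ± 0.56 (adjusted p = 0.216); its near-identical copy Hspa1a may share reads with it. Bag3, an HSP70 partner in autophagy, had 0.60 ± 0.18. Of those 16 genes, which include the integrated stress response, 6 had an unadjusted p under 0.05, all above 0 (median 0.42; 3 without MBQ-167 library 1), led by Eif2ak3, which encodes the kinase PERK, at 1.03 ± 0.21 and Ddit3, which encodes CHOP, at 1.14 ± 0.25.

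In central carbon metabolism, which the study's title names, no interaction passed among the glycolysis genes. Of these 19 genes 17 were above 0, and the list gave 5 with an unadjusted p under 0.05 with a median of 0.35. The 5 became 3 without MBQ-167 library 3 and 8 without MBQ-167 library 1. Median differences from vehicle for that list were -0.51 with the combination, -0.40 with MBQ-167 and -0.49 with paclitaxel. Slc2a1, the glucose transporter GLUT1, had 175, 173 and 138 CPM in the combination libraries, 174, 213 and 150.0 CPM with MBQ-167, 181, 140.3 and 156 CPM with paclitaxel and 289.8, 304 and 316 CPM with vehicle. Slc2a1 fell in all 3 drug groups, at -0.91 (log2) for the combination, -0.76 for MBQ-167 and -0.93 for paclitaxel, all 9 drug libraries were below vehicle, and its interaction was 0.79 ± 0.20 (adjusted p = 0.197). Pfkl, a phosphofructokinase gene, had 0.63 ± 0.18, and Ldha, which makes lactate, had 0.42 ± 0.19 (adjusted p = 0.248 and 0.484).

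Nuclear genes of mitochondrial metabolism and genes encoded in mitochondrial DNA had medians of opposite sign. The 24 pyruvate dehydrogenase and TCA cycle genes had a median of 0.27 with 23 above 0, and 4 with an unadjusted p under 0.05 (1 without vehicle library 1 and 8 without vehicle library 3). Cs, citrate synthase, stood at 0.42 ± 0.16 and Mdh2, malate dehydrogenase, at 0.44 ± 0.17. The 37 nuclear oxidative phosphorylation genes had a median of 0.31 with 34 above 0 and 5 at that threshold (3 without vehicle library 1 and 12 without vehicle library 3), led by Cox4i1, a subunit of cytochrome oxidase, at 0.68 ± 0.20. The 13 genes encoded in mitochondrial DNA had a median of -0.28 with 12 below 0, and none of these lists held a gene that passed. With an offset for GC content the mitochondrially encoded median was 0.02, and it was -0.02 without combination library 1 and -0.61 without combination library 3. Fatty acid oxidation had a median of 0.22 over 16 genes (0.13 without vehicle library 1 and 0.32 without vehicle library 3), with Hadha, the trifunctional enzyme subunit, at 0.64 ± 0.16, and cholesterol and fatty acid synthesis had 0.01 over 27 (-0.12 without vehicle library 3).

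No interaction passed among the genes of the drugs' own targets. Rac1 had 247 ± 27.1 CPM in combination, 265 ± 4.57 CPM in MBQ-167, 245 ± 15.6 CPM in paclitaxel and 299 ± 29.9 CPM in vehicle libraries (SD, n = 3 each), and an interaction of 0.19 ± 0.16. Cdc42 had 0.08 ± 0.17, with a sign that turned to -0.00128 without combination library 2, and Pak1, the kinase that both GTPases activate, had -0.32 ± 0.21; none of these passed (adjusted p = 0.761, 0.924 and 0.666). Of 35 tested Rac and Cdc42 signalling genes 4 had an unadjusted p under 0.05, all above 0, with a median of 0.10 (0.17 without MBQ-167 library 1), led by Baiap2, an adaptor between the GTPases and actin, at 0.86 ± 0.21 and Iqgap1, a scaffold of both, at 0.53 ± 0.17. The 21 actin and Arp2/3 genes gave 8 above 0 at that threshold (5 without combination library 3) and a median of 0.23 (0.36 with the GC offset), with Ezr, which tethers actin to the membrane, at 0.95 ± 0.27 and Capzb, which caps filaments, at 0.55 ± 0.20.

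Tubulins, which paclitaxel binds, had a median of 0.33 over 18 tested genes, with 3 at an unadjusted p under 0.05, all above 0 (1 without vehicle library 1 and 6 without vehicle library 2). Tubb5, the main beta-tubulin gene of dividing cells, had 0.42 ± 0.18 and Tubb2a 0.88 ± 0.23 (adjusted p = 0.457 and 0.218). The 21 mitosis genes had a median of 0.05 (-0.02 without combination library 2) and the 20 DNA replication genes 0.02 (-0.04 without paclitaxel library 1 and 0.14 without vehicle library 2). Mki67, a marker of dividing cells, had 178, 244 and 248 CPM in the combination libraries, 185, 198 and 200.2 CPM with MBQ-167, 239.6, 214 and 252 CPM with paclitaxel and 202, 181 and 237 CPM with vehicle, with the MBQ-167 libraries all below the paclitaxel ones and the other groups overlapping. Its interaction was 0.02 ± 0.19, with a sign that turned under other settings (limma voom -0.00127). Plk1, a mitotic kinase, had -0.53 ± 0.23. Of 18 p53 targets 5 had an unadjusted p under 0.05, all above 0 (median 0.35; 1 without combination library 1), with Cdkn1a, which encodes p21, at 0.64 ± 0.20 and Mdm2, the p53 inhibitor, at 0.38 ± 0.16, and none passed.

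**Figure D4:**
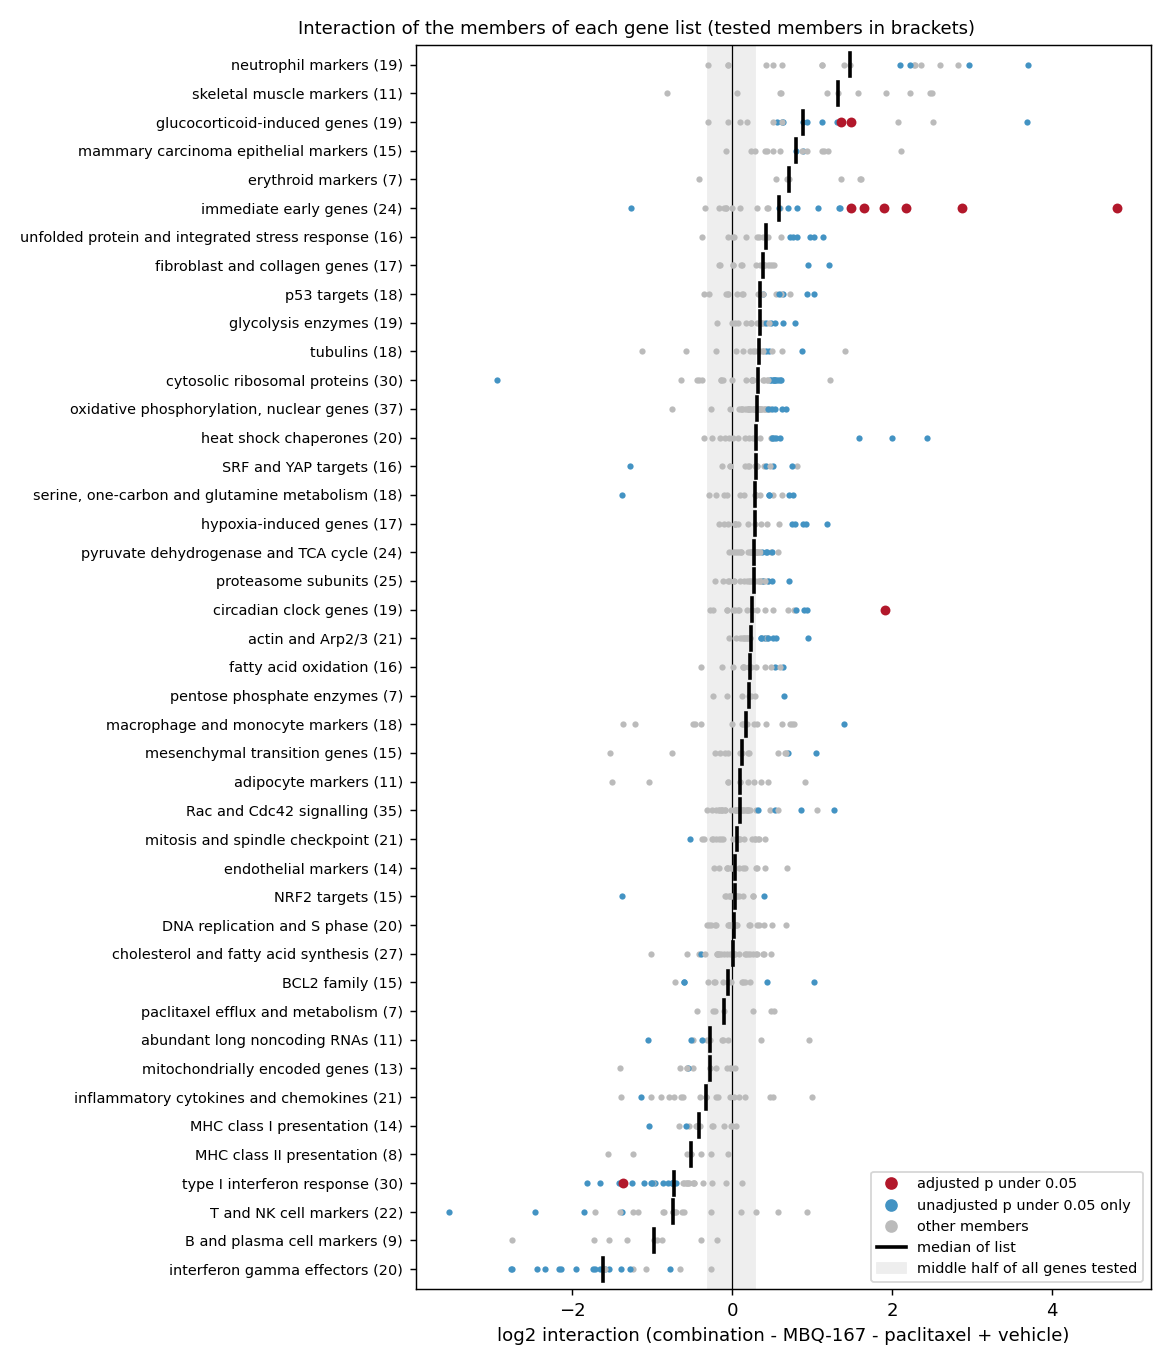
Log2 interaction of each tested member of the 43 gene lists (points), with the list median (black bar), members with an adjusted p under 0.05 in red and those with only an unadjusted p under 0.05 in blue. Lists are ordered by their median, from 1.47 for neutrophil markers to -1.62 for interferon gamma effectors, and the grey band is the interquartile range of all genes tested, -0.30 to 0.28.

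Interferon gamma effectors had the lowest median of all lists. They are the GTPases, chemokines and enzymes that interferon gamma induces to contain intracellular pathogens and recruit T cells. All 20 of these genes were below 0 with a median of -1.62, and 15 had an unadjusted p under 0.05, but none passed in the main fit. The 15 became 14 without vehicle library 1 and 18 without combination library 1. The list's mean log2 CPM was 4.62, 4.23 and 3.54 in combination, 4.43, 4.47 and 3.98 in MBQ-167, 4.54, 5.16 and 4.60 in paclitaxel and 3.41, 3.45 and 2.97 in vehicle libraries. Every drug library was above every vehicle library, and combination library 3 was the lowest of the 9. Median differences from vehicle were 0.95 with the combination, 1.07 with MBQ-167 and 1.49 with paclitaxel. The median interaction ran from -1.96 without combination library 1 to -1.40 without combination library 3.

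Gbp7, a guanylate-binding protein, had 72.1, 62.9 and 42.2 CPM in the combination libraries, 68.5, 74.95 and 65.02 CPM with MBQ-167, 80.5, 109 and 77.98 CPM with paclitaxel and 40.7, 37.4 and 26.5 CPM with vehicle, and an interaction of -1.59 ± 0.28 (adjusted p = 0.0658). All 9 of its drug libraries were above vehicle, and combination library 1 overlapped the MBQ-167 libraries. Gbp7 passed without combination library 1 and with the replicate number as a block. Ido1, which degrades tryptophan and restrains T cells, had -2.77 ± 0.75 (adjusted p = 0.227) at 1.13 ± 0.328 CPM in combination, 1.25 ± 0.374 CPM in MBQ-167, 2.76 ± 1.80 CPM in paclitaxel and 0.445 ± 0.204 CPM in vehicle libraries. Its paclitaxel mean rested on library 2, with 4.82 CPM.

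Type I interferon response genes, the antiviral program, numbered 30, with 29 below 0, 15 at an unadjusted p under 0.05 and a median of -0.73. Zbp1 was the member that passed. Ifi44, an antiviral protein gene, had 40.2, 28.7 and 27.2 CPM in the combination libraries, 29.4, 30.5 and 36.3 CPM with MBQ-167, 44.3, 59.2 and 60.9 CPM with paclitaxel and 26.7, 18.4 and 16.9 CPM with vehicle. The paclitaxel libraries were above all others, and its interaction was -1.41 ± 0.27 (adjusted p = 0.0815). Ifi44 passed without combination library 1 and without vehicle library 1. The 14 MHC class I genes had a median of -0.42 (-0.21 without combination library 3) and 2 at an unadjusted p under 0.05 (6 without combination library 1), both below 0: Nlrc5, the activator of MHC class I genes, at -1.05 ± 0.30 and Erap1, which trims their peptides, at -0.58 ± 0.19. The medians were -0.66 for type I interferon, -1.65 for interferon gamma effectors and -0.34 for MHC class I genes with the GC offset.

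Lymphocyte marker levels are given beside these interferon values. The 22 tested T and NK cell markers, of 24 listed, had a median of -0.74, and 4 had an unadjusted p under 0.05, all below 0. Their mean log2 CPM was 0.92, 1.02 and 1.13 in combination, 1.17, 1.05 and 0.96 in MBQ-167, 0.87, 1.90 and 0.75 in paclitaxel and 0.61, 0.83 and -0.57 in vehicle libraries, with no tested marker at 0 in a whole group. Vehicle library 3 was the lowest and paclitaxel library 2 the highest, and the median was -0.26, with 2 at that threshold, without paclitaxel library 2, and -1.16 without vehicle library 2. Klrd1, an NK cell receptor, had 1.58, 2.17 and 1.42 CPM in the combination libraries, 1.22, 1.37 and 1.16 CPM with MBQ-167, 1.45, 2.61 and 1.78 CPM with paclitaxel and 0, 0.395 and 0.338 CPM with vehicle, at very low counts. The part of these cells in the interferon values was not tested.

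Neutrophil markers had the highest median of all lists, 1.47 over 19 tested of 20 listed, with 4 at an unadjusted p under 0.05, all above 0 (8 without vehicle library 1 and 2 without MBQ-167 library 1), and none that passed. Neutrophils expand in mice with 4T1 tumours and carry the S100 proteins and granule enzymes that mark them. Their mean log2 CPM was 2.94, 2.40 and 2.50 in combination, 3.01, 3.39 and 3.34 in MBQ-167, 3.08, 2.33 and 2.14 in paclitaxel and 3.98, 3.78 and 5.45 in vehicle libraries. All drug libraries were below vehicle, vehicle library 3 stood apart above the rest, and without it the median was 0.53, while it was 2.29 without paclitaxel library 1. S100a8, a calprotectin subunit, had 33.6, 21.8 and 21.4 CPM in the combination libraries, 39.2, 59.4 and 64.5 CPM with MBQ-167, 43.6, 22.2 and 26.9 CPM with paclitaxel and 103, 76.4 and 374 CPM with vehicle, and an interaction of 1.47 ± 0.83. Camp, a granule peptide gene, had an interaction of 2.96 ± 0.85, Il1r2, the decoy receptor of interleukin-1, 2.22 ± 0.70, and Cd177, a neutrophil surface protein gene, 3.70 ± 1.39, of which none passed. Immediate early and glucocorticoid-induced genes are also expressed by neutrophils; the part of these cells in the values of those lists was not tested.

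Other cell types gave wider or smaller values. Skeletal muscle markers had a median of 1.32 over 11 genes that became -0.43 without vehicle library 3 and 2.42 without MBQ-167 library 2. Erythroid markers had 0.71 over 7 tested of 10 listed, 2.67 without paclitaxel library 1 and 0.43 without paclitaxel library 3. Mammary carcinoma epithelial markers had 0.79 over 15, with 2 at an unadjusted p under 0.05, Krt8 at 0.89 ± 0.25 and Krt18 at 0.79 ± 0.34 (1 without vehicle library 1), and a median of 0.35 without vehicle library 3. Fibroblast and collagen genes had 0.39 over 17, led by the collagen VI genes Col6a1 at 1.20 ± 0.25 and Col6a2 at 0.95 ± 0.30, and a median of 0.06 without vehicle library 3. Macrophage and monocyte markers had 0.17 over 18 (0.53 without vehicle library 3 and -0.21 without vehicle library 2), with Cd14, the lipopolysaccharide co-receptor, at 1.40 ± 0.32. The median of 9 B and plasma cell markers was -0.98, and it turned to 3.34 without paclitaxel library 2 and was -2.32 without combination library 3.

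No gene passed among cytosolic ribosomal proteins, of which 21 of 30 were above 0, or proteasome subunits, of which 21 of 25 were. The ribosomal protein genes had a median of 0.33, with 10 at an unadjusted p under 0.05 above 0 and 1 below 0, and Rpl8 stood at 0.60 ± 0.17. The 25 proteasome genes had a median of 0.27 with 4 at that threshold (1 without vehicle library 1 and 11 without vehicle library 3), among them Psma3 at 0.70 ± 0.20. The hypoxia list, 17 tested of 18, had a median of 0.28 (0.13 without MBQ-167 library 3) with 5 at that threshold, with Ddit4, an inhibitor of mTOR signalling, at 0.88 ± 0.24. Among 21 inflammatory cytokine and chemokine genes Lif, a cytokine of the IL-6 family, had -1.13 ± 0.32, and the list's median was -0.32.

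The interaction followed transcript GC content across all genes. Spearman's correlation between them was 0.247 over 18144 genes, which are not independent replicates. The median interaction was -0.17 in the 4537 genes with the lowest GC content and 0.12 in the 4536 with the highest. Medians differed between gene classes: 679 genes in the annotation's class TEC, whose existence awaits experiment, had a median of -0.41, 440 lincRNA genes -0.22 and 1253 processed pseudogenes 0.18. The microRNA host transcript Mir17hg had -1.06 ± 0.28 (adjusted p = 0.216). With an offset that removed each library's trend on GC content, all 12 genes passed again, with Fos at 2.84, Fosb at 4.76, Jund at 1.72, Ch25h at -3.07 and Zbp1 at -1.39. Under that offset the medians were -0.18 for the TEC genes and 0.60 for the immediate early list.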

How the data were processed

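Polyadenylated RNA was sequenced in 12 libraries of 4T1 tumours. Per the labels, 500 ng of RNA went into each library. The deposited table holds raw counts for each gene. Per the submitters' processing notes, HISAT2, HTSeq and DESeq2 were used with GRCm38; versions, strandedness and the handling of multiply mapped reads are not given there. No column of per-sample values was left unmapped.

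Genes were kept by filterByExpr of edgeR 4.0.16 (minimum count 10, R 4.3.3). A quasi-likelihood model with robust moderation and TMM scaling was fitted to the 4 group means (8 residual degrees of freedom, biological coefficient of variation 0.214), and each contrast had its p-values adjusted (Benjamini-Hochberg) across 18252 genes, with a threshold of 0.05. The SE is the size of the log2 value divided by the square root of F. The fit was tested on simulated counts. CPM uses TMM-scaled library sizes; levels are not per length and are compared only within a gene. List levels are mean log2 CPM. Gene positions, classes and GC content were taken from GENCODE vM21 (GRCm38), and promoters from RefSeq (GRCm38.p6).

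Named genes have a mean of at least 1 CPM. They are those that passed, the smallest p-values up to 6 per direction, the 2 smallest p-values of each list, and a set of genes listed by name. The members, lists and genes were chosen with earlier results of these data known. Alternatives were DESeq2 1.42.0, limma 3.58.1 voom, other scalings and filters, a GC offset (spline with 5 degrees of freedom, 18144 genes), a replicate block and leaving out each library. Replicate numbers come from the labels, and no source used here says that they mark a shared mouse, litter or day.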

Additional observations from a re-analysis of the deposited data

Results flagged for a closer look

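The interaction of MBQ-167 and paclitaxel passed for 12 genes in edgeR's quasi-likelihood test, adjusted over 18252 genes, with 3 libraries per group. A difference of the vehicle libraries from all drug libraries gives an interaction as well. That and a response of equal size to each treatment cannot be told apart. In that test no gene passed for the combination against either single drug. Only Fos passed in the interaction without MBQ-167 library 3, paclitaxel library 2 or paclitaxel library 3. Values are log2 interactions. Above 0 were Fosb at 4.81, Fos at 2.88, Atf3 at 2.17, Per2 at 1.91, Jund at 1.90, Gm11175 at 1.73, Klf2 at 1.65, Dusp1 at 1.49 and Fkbp5 at 1.36, and below 0 were Tmem229b at -1.19, Zbp1 at -1.37 and Ch25h at -3.04. Gm11175 overlaps Jund on the opposite strand, so these 2 are not separate results where counting did not use strand.

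For 8 of the 12 genes all 9 drug libraries were below all vehicle libraries, and for 2, Tmem229b and Zbp1, all were above. The contrast that picked these genes includes vehicle, so this separation is no separate result, and its share over all genes is not given here. In Per2 and Ch25h the combination libraries overlapped vehicle and stood apart from every single-drug library, above them in Per2 and below them in Ch25h. On the linear CPM scale, without logs, the same contrast was 50.6 CPM for Fos and -10.3 CPM for Ch25h. In the 9 genes above 0 both drugs alone lowered the level. A log2 interaction above 0 then fixes a linear one above 0, so their sign on that scale is no separate result. In the 3 genes below 0 the linear sign was open, and it stayed below 0.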

How the results depend on the processing

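The 9 genes above 0 and 3 below 0 became 79 and 74 with DESeq2, which gave no adjusted p to 5314 genes, and 40 and 34 with no filter on low counts. With upper-quartile scaling 5 were below 0 and with an adjusted p under 0.1 there were 16 below 0; with an unadjusted p under 0.01 there were 266 above 0 and 266 below 0. The cause of these moves was not tested. Limma voom, RLE size factors, a filter of 1 CPM in 3 libraries, protein-coding genes only, library sizes without the ribosomal RNA related features and the GC offset gave 11 to 14 genes. Without robust moderation, an alternative added after seeing the data, 11 passed. Under these settings 11 or 12 of the 12 genes passed; Per2 was lost with limma voom and without robust moderation. Gm11175 was not tested among protein-coding genes.

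With the replicate number as a block, 10 genes passed above 0 and 8 below 0, and with the block and the GC offset together 16 and 5. Over the 4 groups, the correlations of deviations between same-numbered libraries ran from -0.175 to 0.252, with 6 of 18 pairs over 0.1, against -0.194 to 0.227 and 8 of 36 pairs for different numbers, so the number was not read as a pairing in the interaction. Between combination and vehicle alone all 3 same-numbered pairs were over 0.1 (0.108, 0.215 and 0.188) and all 6 others were below 0. Deviations sum to 0 within a group, so same-numbered pairs above 0 push the others below 0, and those 6 add no separate result. For the combination against vehicle the block gave 416 genes, against 372 without it. Gm11175 was lost with the block.

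Leaving out 1 library gave 1 to 19 genes above 0 and 0 to 11 below 0. Where 0 were below 0, MBQ-167 libraries 1 or 3, paclitaxel libraries 2 or 3 or combination library 2 had been left out. The combination gave 0 genes against either single drug in all 12 fits. Cdc42 ran from -0.00128, without combination library 2, to 0.167. Mki67 turned to -0.00127 with limma voom, -0.0337 with upper-quartile scaling, and ran from -0.0941 to 0.155 when 1 library was left out. MBQ-167 against vehicle gave 325 genes with DESeq2, 135 with no filter, 15 with limma voom and 10 when only its groups were fitted; the combination against vehicle gave 14 and paclitaxel against vehicle 351 in such a fit, and 89 and 461 with the GC offset.

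With 3 libraries per group and a median SE of 0.33, no gene with an interaction smaller than 1.19 in size passed in the main fit. Other settings let smaller ones pass: 0.99 was the smallest size that passed with the GC offset. Baiap2, at 0.86 in the main fit, passed with no filter on low counts. With DESeq2 an immediate early gene at 0.70 in the main fit passed as well. Smaller departures from additive effects may thus not be detectable in the main fit at this depth and spread.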
